A study of Mus musculus with 17 samples.

Results

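The 32 transcripts described here are textbook marks of brain cells that are not myeloid, 13 of astrocytes, 10 of neurons and 9 of oligodendrocytes, and they were measured in myeloid cells sorted from mouse brain. The members are a list of gene symbols drawn up with earlier results of these data known, and all 32 were found once each among the 13769 genes of the authors' deposited table. The data come from RNA sequencing of 17 libraries in 4 groups, all of strain C57bl6/j, with no genetic change named in the labels. Transplanted TAµ (3 libraries) and transplanted µ (3 libraries) are fractions sorted from BU-treated mice at 3 months from the transplantation of GFP Lin- cells. P10 TAµ (8 libraries) came from control mice at postnatal day 10, and adult control µ (3 libraries) from control mice that were 5 months old. The series, by its title, is about how far microglia newly made from blood stem and progenitor cells are dependable in their transcripts. The labels spell out neither µ, TAµ nor BU, give no sorting markers, and leave it unsaid if the sorted cells carried GFP, so cells of the host and of the donor cannot be told apart. They also do not give the age of the transplanted mice or say how many animals stand behind a library, and the design text speaks of triplicates where 8 P10 libraries are listed, so the p-values measure the spread between libraries, which may be technical in part. Adult control TAµ, µ cells of P10 mice and BU-treated mice without a transplant were not analysed here.

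Astrocytes clear glutamate and potassium from around synapses, couple through gap junctions and line blood vessels with their endfeet. Neurons are known by the proteins of the synaptic vesicle cycle and by a cytoskeleton of neurofilaments and of tubulins particular to their axons and dendrites. Oligodendrocytes arise from precursor cells under the factors Olig1, Olig2 and Sox10 and wrap axons in myelin, which in the mouse forms largely after birth, so that mature myelin transcripts are scarce in young brain. Microglia, the resident macrophages of the brain, are not known as a main source of most of these transcripts, although macrophages also make some, Glul among them.

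For each gene a log2 normalized level was rebuilt in each of the 4 groups from the average expression and the group differences of the authors' deposited table, with a standard error (SE) after the ± sign. Levels are compared within a gene, or as a sum or median over the same genes in each group, since they are not given per length. Differences are log2 values of the authors' deposited table, first-named group minus second, and "higher" or "lower" is used of genes whose limma adjusted p over all 13769 genes was under 0.05. The table holds no value per library, so groups are shown by a level and its SE, and whether single libraries overlap cannot be shown. Levels of barely detected genes lay around a floor of -4.66 in transplanted TAµ, -4.71 in transplanted µ and -4.70 in adult control µ. Single levels may fall below the floor. Nefm, Mog, Cldn11, Olig2 and Sox10 lay within 1 log2 unit of it in adult control µ and none of the 32 did in either transplanted group, so no size of a single difference from adult control µ is given for those 5, and a difference of effects that contains it is of uncertain size. Age and treatment cannot be told apart between the transplanted groups and their controls. The labels give no day of preparation, so its part is unknown. In bulk libraries, more cells of a lineage and more of its RNA per cell cannot be told apart either.

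The myeloid identity of the libraries was checked with 16 markers of microglia and macrophages. All 16 were measured and none was near the floor; Csf1r, the receptor on which microglia depend for survival, had log2 levels of 11.79 in transplanted TAµ, 11.95 in transplanted µ, 12.12 in P10 TAµ and 11.92 in adult control µ. Summed on a linear scale, these markers came to 15342 in transplanted TAµ, 28158 in transplanted µ, 23043 in P10 TAµ and 18759 in adult control µ. The 13 astrocyte members summed to 5925 in transplanted TAµ, 3832 in transplanted µ, 1364 in P10 TAµ and 1547 in adult control µ. The 10 neuron members summed to 615 in transplanted TAµ, 350.1 in transplanted µ, 132 in P10 TAµ and 89.4 in adult control µ, and the 9 oligodendrocyte members summed to 1563 in transplanted TAµ, 875 in transplanted µ, 148 in P10 TAµ and 181 in adult control µ. These sums are dominated by the genes with the highest levels, which are not scaled by length. Without Mbp and Mobp the other 7 oligodendrocyte members summed to 50.2 in transplanted TAµ, 51.7 in transplanted µ, 62.0 in P10 TAµ and 48.7 in adult control µ, so the order of the oligodendrocyte sums was that of these 2 genes. The median log2 level over the oligodendrocyte members was 0.19 in transplanted TAµ, 0.66 in transplanted µ, 1.39 in P10 TAµ and -0.92 in adult control µ. Over the astrocyte members it was 6.76 in transplanted TAµ, 5.05 in transplanted µ, 4.48 in P10 TAµ and 3.69 in adult control µ, and over the neuron members 3.54 in transplanted TAµ, 2.44 in transplanted µ, 2.28 in P10 TAµ and -0.60 in adult control µ. RNA composition differed between the groups as well: 6 measured mitochondrial transcripts summed to 53082 in transplanted TAµ, 25762 in transplanted µ, 12640 in P10 TAµ and 7661 in adult control µ. The nuclear RNAs Malat1, Neat1 and Meg3 summed to 708 in transplanted TAµ, 890 in transplanted µ, 1742 in P10 TAµ and 12268 in adult control µ. Malat1 and Neat1 were lower in each of the other groups than in adult control µ in the authors' deposited table. Meg3 was higher in transplanted TAµ and P10 TAµ than in adult control µ, and not called in transplanted µ. The sum therefore does not describe Meg3. The part that RNA composition has in the members' differences was not tested.

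Across the 4 groups, 30 of the 32 members passed the F test of the authors' deposited table (limma adjusted p under 0.05), as did 52.2% of all genes; the exceptions were Mag and Cnp. Transplanted TAµ had the highest level for 22 of the 32 members, 11 of 13 astrocyte, 8 of 10 neuron and 3 of 9 oligodendrocyte genes. Adult control µ had the lowest level for 22 of 32, 9 of the astrocyte, 8 of the neuron and 5 of the oligodendrocyte genes. P10 TAµ had the highest level for 5 oligodendrocyte and 2 neuron genes, and for 0 astrocyte genes. These orders are descriptions of the levels and were not tested.

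**Figure D1:**
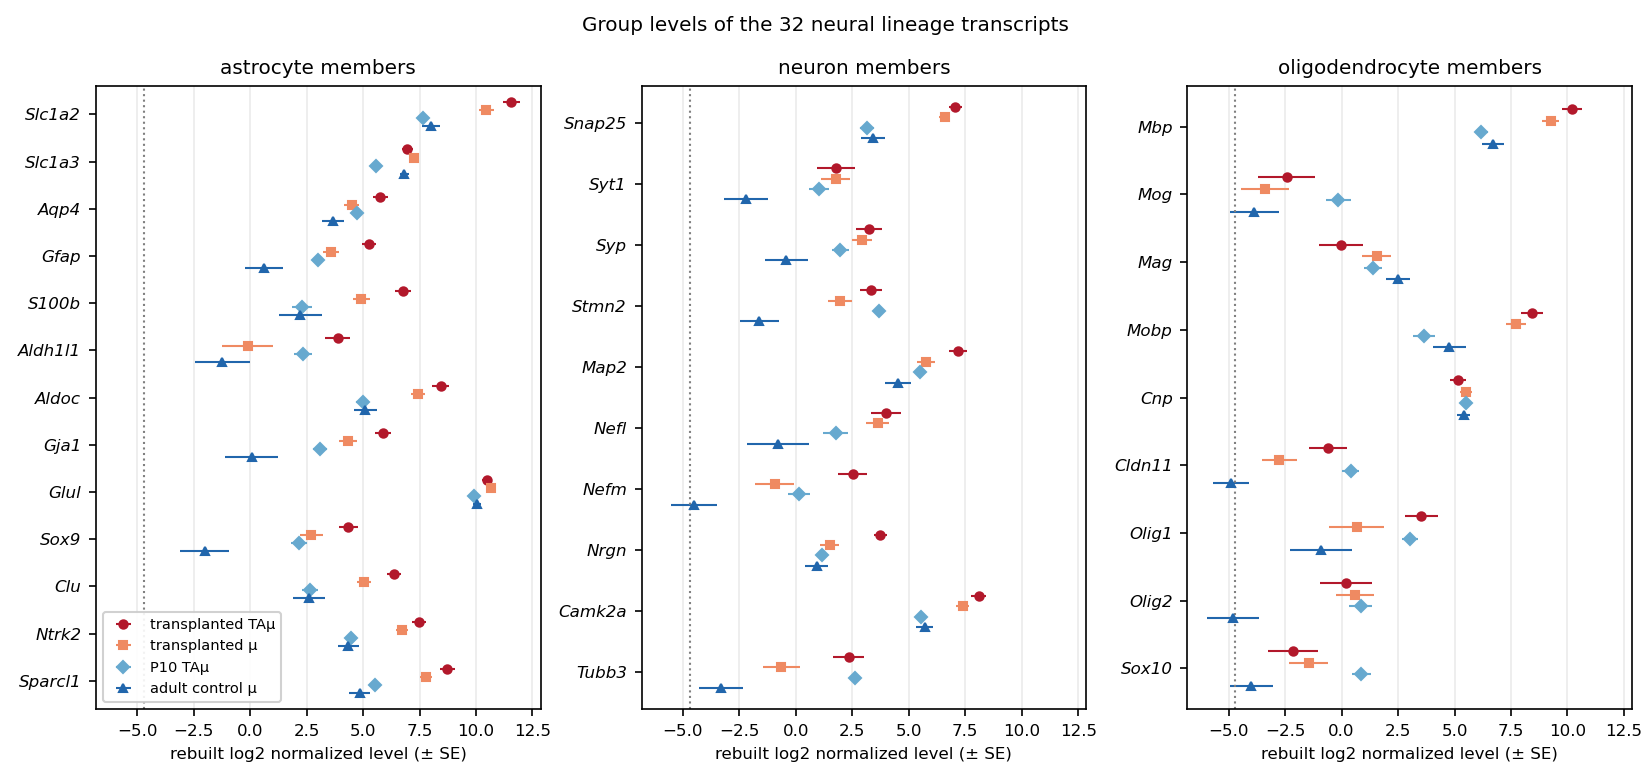
Rebuilt log2 normalized level of each of the 32 members (horizontal axis, bars ± SE) in transplanted TAµ, transplanted µ, P10 TAµ and adult control µ, with the floor of adult control µ as a dotted line. Transplanted TAµ lies farthest right for 22 of 32 members, and 5 members of adult control µ lie within 1 log2 unit of the dotted line.

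Among the astrocyte genes, those for uptake and water transport were described first. Slc1a2 encodes GLT-1, the main glutamate transporter of the adult brain; its log2 level was 11.57 ± 0.39 in transplanted TAµ, 10.47 ± 0.34 in transplanted µ, 7.64 ± 0.24 in P10 TAµ and 8.01 ± 0.40 in adult control µ. Both transplanted groups stood apart from both controls by more than the sum of the SEs, and the controls did not stand apart from each other by as much. Slc1a3, which encodes the related transporter GLAST that is also prominent in immature astrocytes, had a level of 6.96 ± 0.24 in transplanted TAµ, 7.27 ± 0.19 in transplanted µ, 5.57 ± 0.14 in P10 TAµ and 6.83 ± 0.20 in adult control µ. Here P10 TAµ alone was low and the other 3 groups lay close together. Aqp4, the water channel of astrocyte endfeet, was at 5.77 ± 0.35 in transplanted TAµ, 4.49 ± 0.35 in transplanted µ, 4.72 ± 0.20 in P10 TAµ and 3.69 ± 0.49 in adult control µ. Glul, which encodes the glutamine synthetase that converts the glutamate taken up, was at 10.49 ± 0.21 in transplanted TAµ, 10.68 ± 0.17 in transplanted µ, 9.90 ± 0.11 in P10 TAµ and 10.06 ± 0.18 in adult control µ. Its 4 levels spanned less than those of any other astrocyte member.

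Genes of the cytoskeleton, calcium binding and metabolism came next. Gfap, the intermediate filament of astrocytes that increases in reactive cells, had a level of 5.25 ± 0.31 in transplanted TAµ, 3.59 ± 0.37 in transplanted µ, 2.99 ± 0.25 in P10 TAµ and 0.60 ± 0.84 in adult control µ. S100b, a calcium-binding protein of mature astrocytes, was at 6.76 ± 0.35 in transplanted TAµ, 4.92 ± 0.38 in transplanted µ, 2.29 ± 0.46 in P10 TAµ and 2.22 ± 0.94 in adult control µ. For both genes transplanted TAµ stood highest and transplanted µ next. Aldoc, the brain form of the glycolytic enzyme aldolase, was at 8.43 ± 0.37 in transplanted TAµ, 7.44 ± 0.33 in transplanted µ, 4.98 ± 0.27 in P10 TAµ and 5.11 ± 0.49 in adult control µ. Aldh1l1, a folate enzyme used as a general astrocyte mark, was at 3.87 ± 0.56 in transplanted TAµ, -0.10 ± 1.13 in transplanted µ, 2.33 ± 0.40 in P10 TAµ and -1.22 ± 1.23 in adult control µ. Aldh1l1 was the only astrocyte member whose levels in both µ groups lay more than 2 log2 units under those in both TAµ groups, with SEs above 1 in both µ groups; 11% of its exon bases are shared with an antisense gene, Gm15756, and the strand setting of the counting is not given in the sources used here.

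The remaining astrocyte members were a gap junction gene, a transcription factor and genes of signalling and secretion. Gja1, the gap junction protein connexin 43, was at 5.88 ± 0.37 in transplanted TAµ, 4.34 ± 0.39 in transplanted µ, 3.09 ± 0.32 in P10 TAµ and 0.07 ± 1.19 in adult control µ. Sox9, a transcription factor of the astrocyte lineage, was at 4.34 ± 0.42 in transplanted TAµ, 2.72 ± 0.51 in transplanted µ, 2.18 ± 0.36 in P10 TAµ and -2.02 ± 1.08 in adult control µ. For both, adult control µ stood lowest, with an SE above 1 log2 unit. Clu, a secreted chaperone, was at 6.37 ± 0.32 in transplanted TAµ, 5.05 ± 0.32 in transplanted µ, 2.67 ± 0.35 in P10 TAµ and 2.60 ± 0.72 in adult control µ. Ntrk2, the receptor for brain-derived neurotrophic factor, was at 7.48 ± 0.32 in transplanted TAµ, 6.73 ± 0.28 in transplanted µ, 4.48 ± 0.24 in P10 TAµ and 4.34 ± 0.47 in adult control µ. Sparcl1, a secreted protein that promotes synapses, was at 8.74 ± 0.32 in transplanted TAµ, 7.78 ± 0.28 in transplanted µ, 5.55 ± 0.22 in P10 TAµ and 4.85 ± 0.46 in adult control µ. In these 3 genes, as in Slc1a2, S100b and Aldoc, the 2 control groups lay within 1 log2 unit of each other and both transplanted groups more than 2 log2 units above.

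Neuron genes of the synaptic vesicle cycle were led by Snap25, a protein of the vesicle fusion machinery. Its level was 7.05 ± 0.29 in transplanted TAµ, 6.60 ± 0.24 in transplanted µ, 3.15 ± 0.29 in P10 TAµ and 3.43 ± 0.52 in adult control µ, so the transplanted groups lay close to each other and far from both controls. Syt1, the calcium sensor of vesicle fusion, was at 1.78 ± 0.85 in transplanted TAµ, 1.76 ± 0.62 in transplanted µ, 1.05 ± 0.44 in P10 TAµ and -2.21 ± 0.99 in adult control µ. Syp, a membrane protein of the vesicle, was at 3.25 ± 0.58 in transplanted TAµ, 2.93 ± 0.45 in transplanted µ, 1.96 ± 0.38 in P10 TAµ and -0.43 ± 0.95 in adult control µ; 16.8% of its exon bases are shared with the antisense gene Gm14703. In Syt1 and Syp adult control µ stood apart and the other 3 groups lay closer to each other.

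Of the postsynaptic genes, Camk2a, a kinase of excitatory synapses, was at 8.10 ± 0.33 in transplanted TAµ, 7.39 ± 0.29 in transplanted µ, 5.55 ± 0.21 in P10 TAµ and 5.70 ± 0.37 in adult control µ. Nrgn, a calmodulin-binding protein of forebrain dendrites, was at 3.75 ± 0.29 in transplanted TAµ, 1.49 ± 0.43 in transplanted µ, 1.17 ± 0.28 in P10 TAµ and 0.93 ± 0.51 in adult control µ. Camk2a separated both transplanted groups from both controls, whereas Nrgn separated transplanted TAµ from the other 3 groups.

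Cytoskeletal neuron genes differed among themselves in the order of the groups. Stmn2, a microtubule regulator of growing axons, was at 3.33 ± 0.48 in transplanted TAµ, 1.94 ± 0.53 in transplanted µ, 3.70 ± 0.18 in P10 TAµ and -1.61 ± 0.86 in adult control µ. Tubb3, a tubulin of newly formed neurons, was at 2.34 ± 0.67 in transplanted TAµ, -0.64 ± 0.84 in transplanted µ, 2.60 ± 0.26 in P10 TAµ and -3.31 ± 0.97 in adult control µ. Stmn2 and Tubb3 were the neuron members with their highest level in P10 TAµ. Between transplanted TAµ and P10 TAµ neither was called, with differences of -0.37 ± 0.52 for Stmn2 and -0.26 ± 0.72 for Tubb3. For both genes the 2 TAµ groups lay above the 2 µ groups. What part age or fraction has in these levels was not tested. Map2, a microtubule protein of dendrites, was at 7.18 ± 0.41 in transplanted TAµ, 5.77 ± 0.40 in transplanted µ, 5.48 ± 0.25 in P10 TAµ and 4.51 ± 0.57 in adult control µ. The neurofilament genes Nefl and Nefm share 1108 exon bases on opposite strands. These are 32.8% of the exon bases of Nefl and 19.2% of those of Nefm. The strand setting of the counting is not given, so how reads of the shared bases were counted is unknown. Nefl was at 4.0 ± 0.65 in transplanted TAµ, 3.62 ± 0.49 in transplanted µ, 1.76 ± 0.57 in P10 TAµ and -0.78 ± 1.38 in adult control µ. Nefm was at 2.53 ± 0.65 in transplanted TAµ, -0.94 ± 0.87 in transplanted µ, 0.14 ± 0.48 in P10 TAµ and -4.52 ± 1.01 in adult control µ, where it lay at the floor. Map2 and Nefl had the group order of Syt1, Syp and Nrgn, with transplanted TAµ highest, transplanted µ next and adult control µ lowest.

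The oligodendrocyte genes fell into transcripts with different orders. Mbp, myelin basic protein, was at 10.19 ± 0.44 in transplanted TAµ, 9.26 ± 0.38 in transplanted µ, 6.19 ± 0.30 in P10 TAµ and 6.72 ± 0.49 in adult control µ. Mobp, a second basic protein of compact myelin, was at 8.43 ± 0.50 in transplanted TAµ, 7.72 ± 0.43 in transplanted µ, 3.67 ± 0.49 in P10 TAµ and 4.77 ± 0.73 in adult control µ. Both had the pattern of Slc1a2, with the 2 transplanted groups high and the controls low and close together. Mag, a glycoprotein of the myelin membrane that faces the axon, was at -0.02 ± 0.97 in transplanted TAµ, 1.55 ± 0.65 in transplanted µ, 1.39 ± 0.38 in P10 TAµ and 2.50 ± 0.54 in adult control µ. Cnp, an enzyme of the cytoplasmic channels of myelin, was at 5.15 ± 0.36 in transplanted TAµ, 5.5 ± 0.27 in transplanted µ, 5.5 ± 0.15 in P10 TAµ and 5.41 ± 0.28 in adult control µ. Mag did not have this pattern, and the 4 levels of Cnp lay within their SEs; 4.2% of the exon bases of Cnp are shared with Dnajc7 on the other strand.

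The other oligodendrocyte members had low levels or large SEs in at least 1 group. Mog, a protein of the outer face of myelin, was at -2.44 ± 1.27 in transplanted TAµ, -3.38 ± 1.07 in transplanted µ, -0.14 ± 0.54 in P10 TAµ and -3.86 ± 1.09 in adult control µ. Cldn11, the tight junction protein of myelin, was at -0.62 ± 0.84 in transplanted TAµ, -2.75 ± 0.76 in transplanted µ, 0.40 ± 0.37 in P10 TAµ and -4.90 ± 0.79 in adult control µ. Both had their highest level in P10 TAµ. Olig1, a factor of the lineage that is also present in precursor cells, was at 3.52 ± 0.73 in transplanted TAµ, 0.66 ± 1.21 in transplanted µ, 3.03 ± 0.36 in P10 TAµ and -0.92 ± 1.38 in adult control µ; it shares 7.3% of its exon bases with Gm15966 on the other strand. Olig2, its paralog that specifies the lineage, was at 0.19 ± 1.14 in transplanted TAµ, 0.58 ± 0.84 in transplanted µ, 0.84 ± 0.51 in P10 TAµ and -4.80 ± 1.14 in adult control µ. Sox10, a factor that drives myelin genes, was at -2.16 ± 1.10 in transplanted TAµ, -1.45 ± 0.86 in transplanted µ, 0.87 ± 0.42 in P10 TAµ and -4.0 ± 0.95 in adult control µ. For none of these 3 factors did both transplanted groups lie above both controls, as they did for Mbp and Mobp.

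Promoter sequences are shown for 2 astrocyte, 1 neuron and 1 oligodendrocyte member with an entry in the RefSeq promoter table (build GRCm38.p6). Of the members with an entry, these had the smallest adjusted p of their lineage in transplanted TAµ against P10 TAµ. Sparcl1 and Clu had a smaller adjusted p than S100b, Snap25 and Camk2a than Nrgn, and Mbp than Mobp, but no entry. Of the 32 members, 20 had an entry, in 24 windows from 250 bases before to 50 bases after a start. Each run is given 5′ to 3′ on the strand of the gene, with capitals marking matches to the Sox motifs ACAAAG or ACAATG or to the E-box CAGCTG on either strand. The window of Slc1a2 is chr2:102706188-102706487 (plus strand) and lies inside the GENCODE vM21 gene, that of S100b chr10:76253586-76253885 (plus strand), that of Nrgn chr9:37552696-37552995 (minus strand) and that of Mobp chr9:120149492-120149791 (plus strand).
Slc1a2: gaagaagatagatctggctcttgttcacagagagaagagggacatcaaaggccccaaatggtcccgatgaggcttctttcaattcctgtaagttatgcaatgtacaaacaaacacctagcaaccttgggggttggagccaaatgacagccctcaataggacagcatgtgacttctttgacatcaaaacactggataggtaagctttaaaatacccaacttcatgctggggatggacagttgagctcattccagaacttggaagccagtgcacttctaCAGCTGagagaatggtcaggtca
S100b: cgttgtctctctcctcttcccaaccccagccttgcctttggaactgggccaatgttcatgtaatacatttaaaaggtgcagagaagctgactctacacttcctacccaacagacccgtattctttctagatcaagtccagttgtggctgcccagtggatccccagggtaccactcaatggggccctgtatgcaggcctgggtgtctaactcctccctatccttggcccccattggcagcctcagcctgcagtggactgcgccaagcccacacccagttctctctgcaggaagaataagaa
Nrgn: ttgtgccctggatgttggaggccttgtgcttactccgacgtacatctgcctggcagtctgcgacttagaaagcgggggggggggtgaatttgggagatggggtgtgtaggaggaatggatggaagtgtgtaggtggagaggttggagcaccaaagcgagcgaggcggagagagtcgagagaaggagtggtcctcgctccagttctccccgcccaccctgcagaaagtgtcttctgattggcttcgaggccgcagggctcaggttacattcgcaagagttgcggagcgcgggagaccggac
Mobp: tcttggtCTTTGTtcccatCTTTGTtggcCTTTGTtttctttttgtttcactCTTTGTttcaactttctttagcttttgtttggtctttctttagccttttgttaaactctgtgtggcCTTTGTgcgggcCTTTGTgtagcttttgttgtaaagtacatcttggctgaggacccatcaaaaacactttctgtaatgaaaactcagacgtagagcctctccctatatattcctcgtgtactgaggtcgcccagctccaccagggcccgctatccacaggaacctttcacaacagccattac
The window of Mobp held 6 Sox matches, a number reached in 1 of all 32851 windows of the table (0.00304%), and the most in a window of another member was 2. Sox motifs were in 8 of the 24 windows of members, 33.3%, against 28.6% of all 32851 windows. The E-box was in 3 member windows, 12.5%, that of Slc1a2 among them, against 16.3% of all windows. The TATA motif TATAAA was in 2 member windows, 8.33%, against 13.6% of all, and the nuclear factor I site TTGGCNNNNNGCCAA in 0 member windows, against 0.0365% of all. The windows of S100b and Nrgn held none of these motifs. A match describes the letters of a window and not a bound site.

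Transplanted TAµ was compared with P10 TAµ, the control of the same fraction. Most astrocyte members were higher in transplanted TAµ, and with them some neuron members and, of the oligodendrocyte members, the compact myelin genes Mbp and Mobp. In the authors' deposited table, 17 of the 32 members were higher, against 10.5% of all genes, and 0 lower, against 15.3% of all genes. At an unadjusted limma p under 0.05, 21 members had positive and 1, Sox10, a negative difference. By lineage, 10 of 13 astrocyte, 5 of 10 neuron and 2 of 9 oligodendrocyte genes came out higher in the authors' deposited table. The median log2 difference was 2.79 over the astrocyte, 1.97 over the neuron and -0.65 over the oligodendrocyte members, against -0.33 over all genes. After centring on that median of all genes, 20 members were higher and 0 lower, while the share of higher calls among all called genes was 60.3%, against 40.7% without centring.

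Among the astrocyte genes, S100b was 22.2-fold higher in transplanted TAµ (4.47 ± 0.57, limma adjusted p = 2.99e-05) in the authors' deposited table. Both glutamate transporter genes came out higher in the authors' deposited table, Slc1a2 by 15.2-fold (3.93 ± 0.46, limma adjusted p = 1.19e-05) and Slc1a3 by 2.63-fold (1.39 ± 0.27, limma adjusted p = 0.00132). Clu, Aldoc, Sparcl1 and Ntrk2 were higher by 3.70 ± 0.47, 3.45 ± 0.46, 3.19 ± 0.39 and 3.00 ± 0.40 on the log2 scale in the authors' deposited table. Gja1, Gfap and Sox9 were higher by 2.79 ± 0.49, 2.25 ± 0.40 and 2.16 ± 0.55 in the authors' deposited table. The 3 astrocyte members not called were Aldh1l1 at 1.54 ± 0.69, Aqp4 at 1.05 ± 0.40 and Glul at 0.59 ± 0.24 (limma adjusted p = 0.107, 0.0616 and 0.0774) in the authors' deposited table. Aqp4 and Glul passed the threshold after centring.

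Of the neuron genes, Snap25 was 14.9-fold higher in transplanted TAµ (3.90 ± 0.41, limma adjusted p = 3.93e-06) in the authors' deposited table. Both postsynaptic genes, Nrgn and Camk2a, were higher by 2.58 ± 0.41 (limma adjusted p = 0.000199) and 2.55 ± 0.40 (limma adjusted p = 0.000180), and the cytoskeletal genes Nefm and Map2 by 2.38 ± 0.80 (0.0366) and 1.70 ± 0.48 (0.0150), in the authors' deposited table. Vesicle genes apart from Snap25 were not called, with Syp at 1.29 ± 0.69 and Syt1 at 0.74 ± 0.96 in the authors' deposited table. Nor were Nefl at 2.24 ± 0.86, which passed after centring, and the genes of growing neurons Stmn2 at -0.37 ± 0.52 and Tubb3 at -0.26 ± 0.72 in the authors' deposited table.

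Mobp had the largest difference of the oligodendrocyte members, 27.1-fold higher in transplanted TAµ (4.76 ± 0.70, limma adjusted p = 0.000105), followed by Mbp, 16.0-fold higher (4.0 ± 0.53, limma adjusted p = 4.39e-05), in the authors' deposited table. Other myelin genes were not called, with Mag at -1.41 ± 1.04, Cnp at -0.35 ± 0.40, Cldn11 at -1.02 ± 0.91 and Mog at -2.30 ± 1.38 in the authors' deposited table. The lineage factors were not called either, with Olig1 at 0.49 ± 0.82, Olig2 at -0.65 ± 1.25 and Sox10 at -3.04 ± 1.18 (limma adjusted p = 0.686, 0.730 and 0.0660) in the authors' deposited table. The 95% intervals of Cnp, -1.18 to 0.48, and of Olig2, -3.28 to 1.97, leave differences of either sign possible.

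Beside these members, mitochondrial mt-Co1 was higher in transplanted TAµ by 1.89 (limma adjusted p = 0.000436) and Malat1 differed by -1.32 (limma adjusted p = 0.0523) in the authors' deposited table. Microglia and macrophage markers, 16 in all, had 2 higher and 8 lower in transplanted TAµ and a median log2 difference of -0.64 in the authors' deposited table. Of 9 measured endothelial genes 3 were lower, of 5 ependymal and choroid plexus genes 3 were higher, and of 5 erythroid genes 4 rose too, in the authors' deposited table. Their part in the result was not tested.

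**Figure D2:**
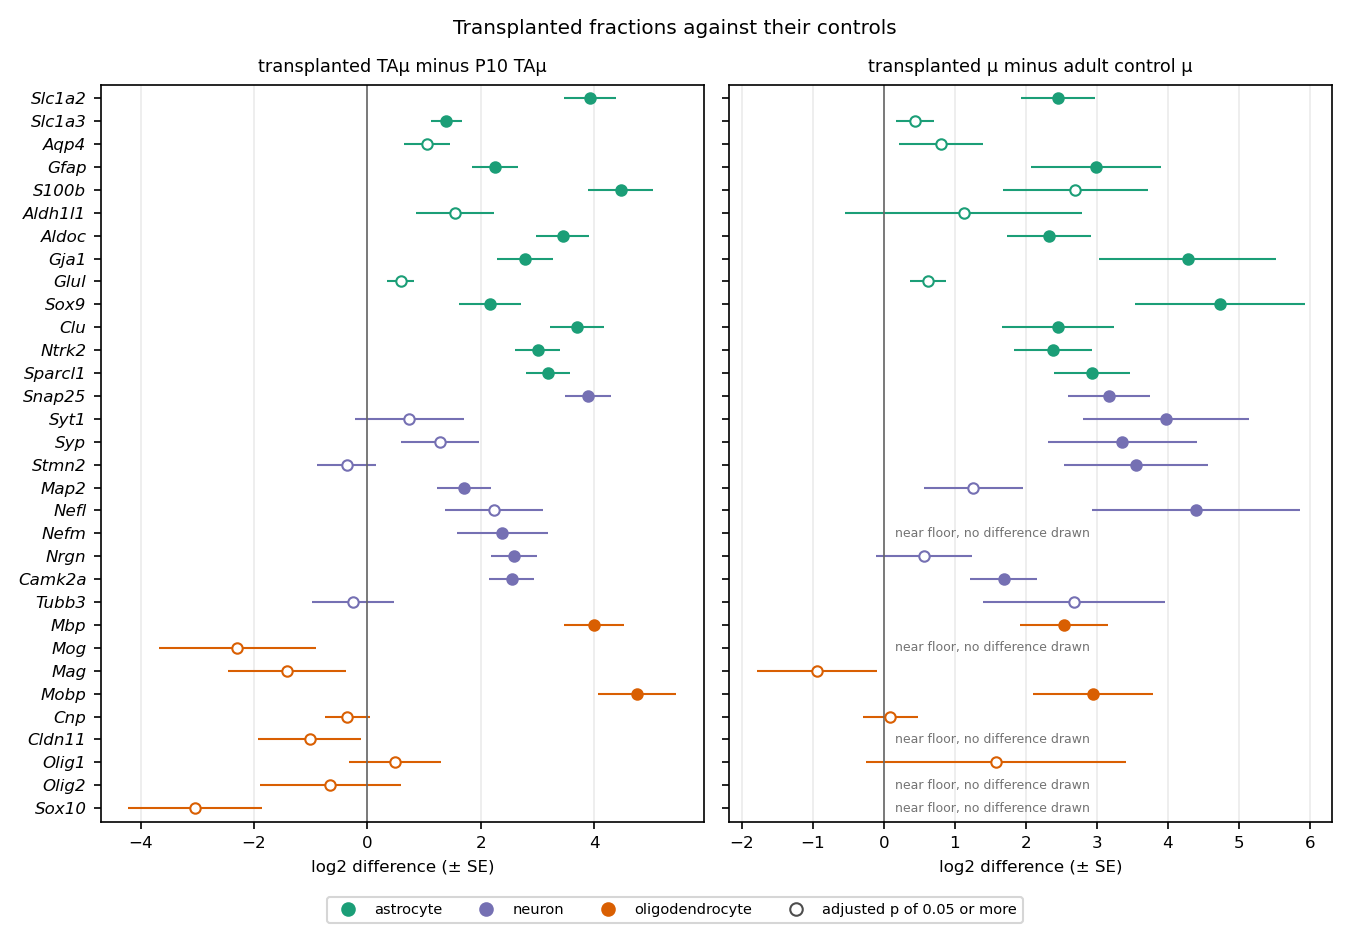
Log2 difference (horizontal axis, bars ± SE) of each member for transplanted TAµ minus P10 TAµ and for transplanted µ minus adult control µ, with filled points for limma adjusted p under 0.05 and no point where adult control µ lay near the floor. Filled points lie right of 0 in both panels, 17 of 32 members in transplanted TAµ and 16 drawn of 17 in transplanted µ.

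Transplanted µ was then set against adult control µ, its control of the same fraction. Higher in transplanted µ were 8 astrocyte members, 6 neuron members with all 3 vesicle genes among them, and Mbp, Mobp and Olig2. In the authors' deposited table, 17 of the 32 members were higher, against 11.3% of all genes, and 0 lower, against 10.5% of all genes; at an unadjusted limma p under 0.05 the counts were 20 and 0. These were 8 of 13 astrocyte, 6 of 10 neuron and 3 of 9 oligodendrocyte genes. The median log2 difference was 2.45 over the astrocyte members, 3.26 over the neuron members (3.17 without Nefm) and 2.15 over the oligodendrocyte members (1.58 without the 4 near the floor), against 0.19 over all genes. At an adjusted p of 0.01 in place of 0.05, 5 members were higher. Centring on the median of all genes left 17 members higher and 0 lower, while it moved the share of higher calls among all called genes to 37.7%, against 52.0% without centring.

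Sox9 had the largest difference of the astrocyte members, 26.6-fold higher in transplanted µ (4.73 ± 1.19, limma adjusted p = 0.0105), and Gja1 was 19.4-fold higher (4.28 ± 1.25, limma adjusted p = 0.0224) in the authors' deposited table. Smaller SEs went with Sparcl1, higher by 2.93 ± 0.54 (limma adjusted p = 0.00151), and with Slc1a2, higher by 2.45 ± 0.52 (limma adjusted p = 0.00388), in the authors' deposited table. Gfap, Clu, Ntrk2 and Aldoc were higher by 2.99 ± 0.92, 2.45 ± 0.79, 2.39 ± 0.55 and 2.33 ± 0.59 in the authors' deposited table. Not called were S100b at 2.70 ± 1.02 (limma adjusted p = 0.0651), Aldh1l1 at 1.12 ± 1.67, Aqp4 at 0.81 ± 0.60, Glul at 0.62 ± 0.25 and Slc1a3 at 0.44 ± 0.27 in the authors' deposited table.

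All 3 vesicle genes came out higher in transplanted µ, by the authors' deposited table, Snap25 by 3.17 ± 0.58 (limma adjusted p = 0.00145), Syt1 by 3.97 ± 1.17 (0.0228) and Syp by 3.36 ± 1.05 (0.0304). Nefl was higher by 4.40 ± 1.46, Stmn2 by 3.55 ± 1.01 and Camk2a by 1.69 ± 0.47 (limma adjusted p = 0.0399, 0.0195 and 0.0177) in the authors' deposited table. Not called were Tubb3 at 2.68 ± 1.28, Map2 at 1.26 ± 0.70 and Nrgn at 0.57 ± 0.67 in the authors' deposited table, and Nefm with a limma adjusted p of 0.0628 against adult control µ at the floor.

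The myelin gene Mobp was 7.71-fold higher in transplanted µ (2.95 ± 0.85, limma adjusted p = 0.0204) and Mbp 5.81-fold higher (2.54 ± 0.62, limma adjusted p = 0.00873) in the authors' deposited table. Olig2 was higher with a limma adjusted p of 0.0126 in the authors' deposited table, at a level of 0.58 in transplanted µ, against the floor in adult control µ. Olig1 at 1.58 ± 1.84, Cnp at 0.09 ± 0.39 and Mag at -0.95 ± 0.85 were not called in the authors' deposited table. Mog, Cldn11 and Sox10, near the floor in adult control µ, had limma adjusted p-values of 0.843, 0.166 and 0.159 in the authors' deposited table.

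In the same comparison mt-Co1 was higher in transplanted µ by 1.74 (limma adjusted p = 0.00268), and Malat1 differed by -3.77 (limma adjusted p = 7.34e-05) in the authors' deposited table. Microglia and macrophage markers had 6 of 16 higher, and of 9 endothelial genes 0 were called by limma, 2 of them having a positive and 0 a negative difference at an unadjusted p under 0.05, in the authors' deposited table. By the authors' deposited table, 3 of 5 erythroid genes were higher, and 3 of the 5 lay near the floor in adult control µ. Over all genes, 11.3% were higher and 10.5% lower. The part of these other lists in the members' differences was not tested.

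The 2 comparisons share no library, and their calls were set side by side, but the transplanted fractions carry matching sample letters in the labels and so may not be independent of each other. Of the 32 members 12 were higher in both, which is 70.6% of the 17 called in transplanted TAµ and 70.6% of the 17 called in transplanted µ, where 53.1% of all 32 members were called in each comparison. Over all genes 455 were higher in both, 31.6% of those higher in transplanted TAµ and 29.2% of those higher in transplanted µ, where 10.5% of all genes were higher in transplanted TAµ and 11.3% in transplanted µ. The 12 were Slc1a2, Gfap, Aldoc, Gja1, Sox9, Clu, Ntrk2 and Sparcl1 among the astrocyte genes, Snap25 and Camk2a among the neuron genes, and Mbp and Mobp among the oligodendrocyte genes. Slc1a3, S100b, Map2, Nefm and Nrgn passed in transplanted TAµ and not in transplanted µ; Syt1, Syp, Stmn2, Nefl and Olig2 passed in transplanted µ and not in transplanted TAµ. Neither comparison called Aqp4, Aldh1l1, Glul, Tubb3, Mog, Mag, Cnp, Cldn11, Olig1 or Sox10.

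Whether the transplant effects differ was tested directly, as the difference between transplanted TAµ and P10 TAµ minus the difference between transplanted µ and adult control µ, with SEs recovered from the deposited p-values and Benjamini-Hochberg adjustment over 13764 genes. Of the 32 members 0 had a larger effect in TAµ past an adjusted p of 0.05, against 3.76% of all genes, and 3 a smaller one, against 9.61% of all genes; at an unadjusted p under 0.05 the counts were 3 and 5. The 3 were Stmn2 at -3.92 ± 1.14 (adjusted p = 0.0302), Olig2 and Sox10 (adjusted p = 0.0421 each). Of these, Olig2 and Sox10 rest on adult control µ near the floor, and after centring on the median of all genes, -0.50, none of the 3 passed. Slc1a3 and Nrgn, at 0.95 ± 0.38 and 2.02 ± 0.79 without centring (adjusted p = 0.108 and 0.0964), passed after centring. The share of larger effects in TAµ among all called genes was 61.7% after centring, against 28.1% without. S100b, called in transplanted TAµ alone, had a difference of effects of 1.77 ± 1.17 (adjusted p = 0.327) and a 95% interval of -0.68 to 4.23. The difference of effects for Syt1, called in transplanted µ alone, was -3.24 ± 1.51 (adjusted p = 0.161), with a 95% interval of -6.41 to -0.06. These intervals are not adjusted over genes, and that of Syt1 leaves out 0. At the adjusted threshold, a difference of the transplant effects was therefore not shown for S100b or Syt1. The controls differ in age and in fraction, so this test cannot tell a fraction apart from the age of its control.

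**Figure D3:**
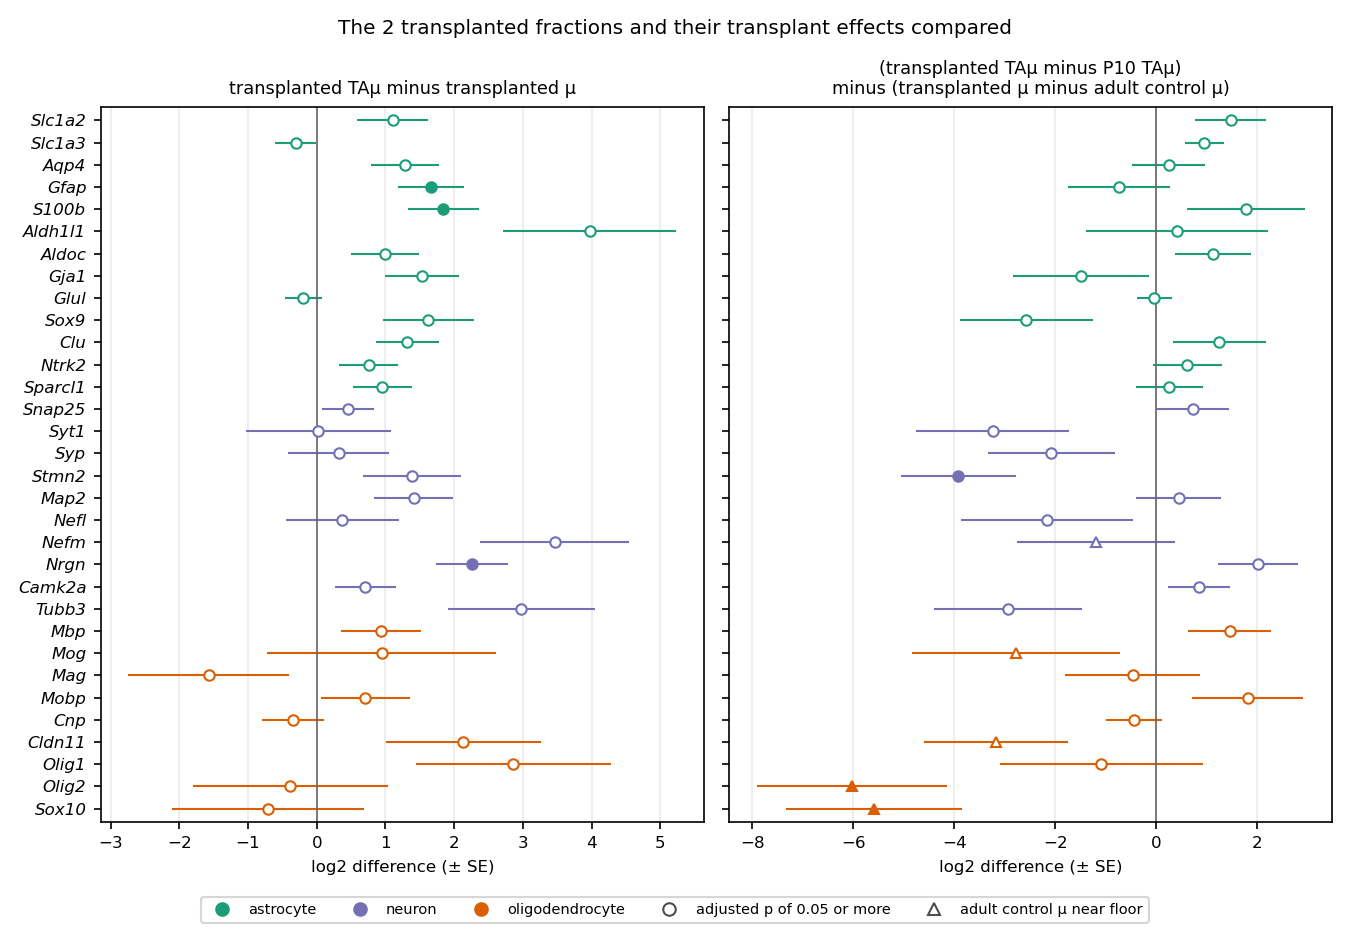
Log2 difference (horizontal axis, bars ± SE) of each member for transplanted TAµ minus transplanted µ, and for the transplant effect in TAµ minus that in µ, with filled points for adjusted p under 0.05 and triangles, of uncertain size, where adult control µ lay near the floor. Gfap, S100b and Nrgn are filled in the first panel, and Stmn2, Olig2 and Sox10 in the second.

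Transplanted TAµ and transplanted µ, which carry matching sample letters in the labels, were compared with each other. Gfap, S100b and Nrgn passed the threshold, and most of the other members had positive differences that did not. In the authors' deposited table, 3 of the 32 were higher in transplanted TAµ, against 3.56% of all genes, and 0 lower, against 2.93% of all genes; at an unadjusted limma p under 0.05 the counts were 13 and 0. Gfap was higher by 1.66 ± 0.48 (limma adjusted p = 0.0471), S100b by 1.84 ± 0.51 (limma adjusted p = 0.0396) and Nrgn by 2.25 ± 0.52 (limma adjusted p = 0.0155) in the authors' deposited table. Positive differences were found for 26 of the 32 members, 11 of 13 astrocyte, 10 of 10 neuron and 5 of 9 oligodendrocyte genes. The medians were 1.28, 1.05 and 0.71 in these lineages, against -0.02 over all genes. Aldh1l1 at 3.97 ± 1.26 (limma adjusted p = 0.0680), Nefm at 3.46 ± 1.09 (0.0647) and Tubb3 at 2.98 ± 1.07 (0.106) had larger differences that were not called in the authors' deposited table. Slc1a3 at -0.31 ± 0.30, Glul at -0.19 ± 0.27 and Mag at -1.57 ± 1.17 were on the negative side without a call in the authors' deposited table. The 95% interval of Mbp, -0.30 to 2.16, and that of Snap25, -0.34 to 1.24, hold differences of more than 2-fold towards transplanted TAµ. In the same comparison 10 of 16 microglia and macrophage markers were lower in transplanted TAµ, with a median of -1.21 over the 16, and mt-Co1 differed by 1.11 (limma adjusted p = 0.0857), in the authors' deposited table; what part these have in the members' values was not tested.

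P10 TAµ was compared with adult control µ, in which age and fraction cannot be told apart. Stmn2, Tubb3, Syt1 and Nefm were higher in P10 TAµ among the neuron genes, and Cldn11, Mog, Olig1, Olig2 and Sox10 among the oligodendrocyte genes, while 9 of the 13 astrocyte members were not called. In the authors' deposited table, 12 of the 32 members were higher, against 23.2% of all genes, and 1 lower, against 12.5% of all genes. By lineage, 3 of 13 astrocyte, 4 of 10 neuron and 5 of 9 oligodendrocyte genes came out higher in the authors' deposited table. The median log2 difference was 0.13 over the astrocyte members, 2.46 over the neuron members (2.39 without Nefm) and 3.73 over the oligodendrocyte members (-0.53 without the 4 near the floor), against 0.41 over all genes. After centring on that median 9 members were higher and 2 lower, and the share of higher calls among all called genes was 40.1%, against 65.0% without centring.

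Tubb3 was higher in P10 TAµ by 5.91 ± 1.0 (limma adjusted p = 0.000255), Stmn2 by 5.31 ± 0.88 (limma adjusted p = 0.000221) and Syt1 by 3.26 ± 1.08 (limma adjusted p = 0.0260) in the authors' deposited table. Nefm, Cldn11, Olig2, Sox10 and Mog were higher with limma adjusted p-values of 0.00396, 0.000203, 0.00215, 0.00175 and 0.0236, all near the floor in adult control µ, in the authors' deposited table. Olig1 was higher by 3.95 ± 1.43 (limma adjusted p = 0.0390) in the authors' deposited table and lost the call after centring. Among astrocyte genes, Sox9 was higher by 4.19 ± 1.14 (limma adjusted p = 0.00861), Aldh1l1 by 3.55 ± 1.29 (0.0401) and Gfap by 2.39 ± 0.88 (0.0420) in the authors' deposited table, and Aldh1l1 and Gfap lost the call after centring. Slc1a3 was lower in P10 TAµ at -1.26 ± 0.24 (limma adjusted p = 0.000674) in the authors' deposited table. Members without a call included Slc1a2 at -0.37 ± 0.47, S100b at 0.07 ± 1.05, Snap25 at -0.27 ± 0.60, Mbp at -0.53 ± 0.57 and Mobp at -1.10 ± 0.88 in the authors' deposited table. This comparison shares its libraries with both transplant comparisons, as their controls.

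**Figure D4:**
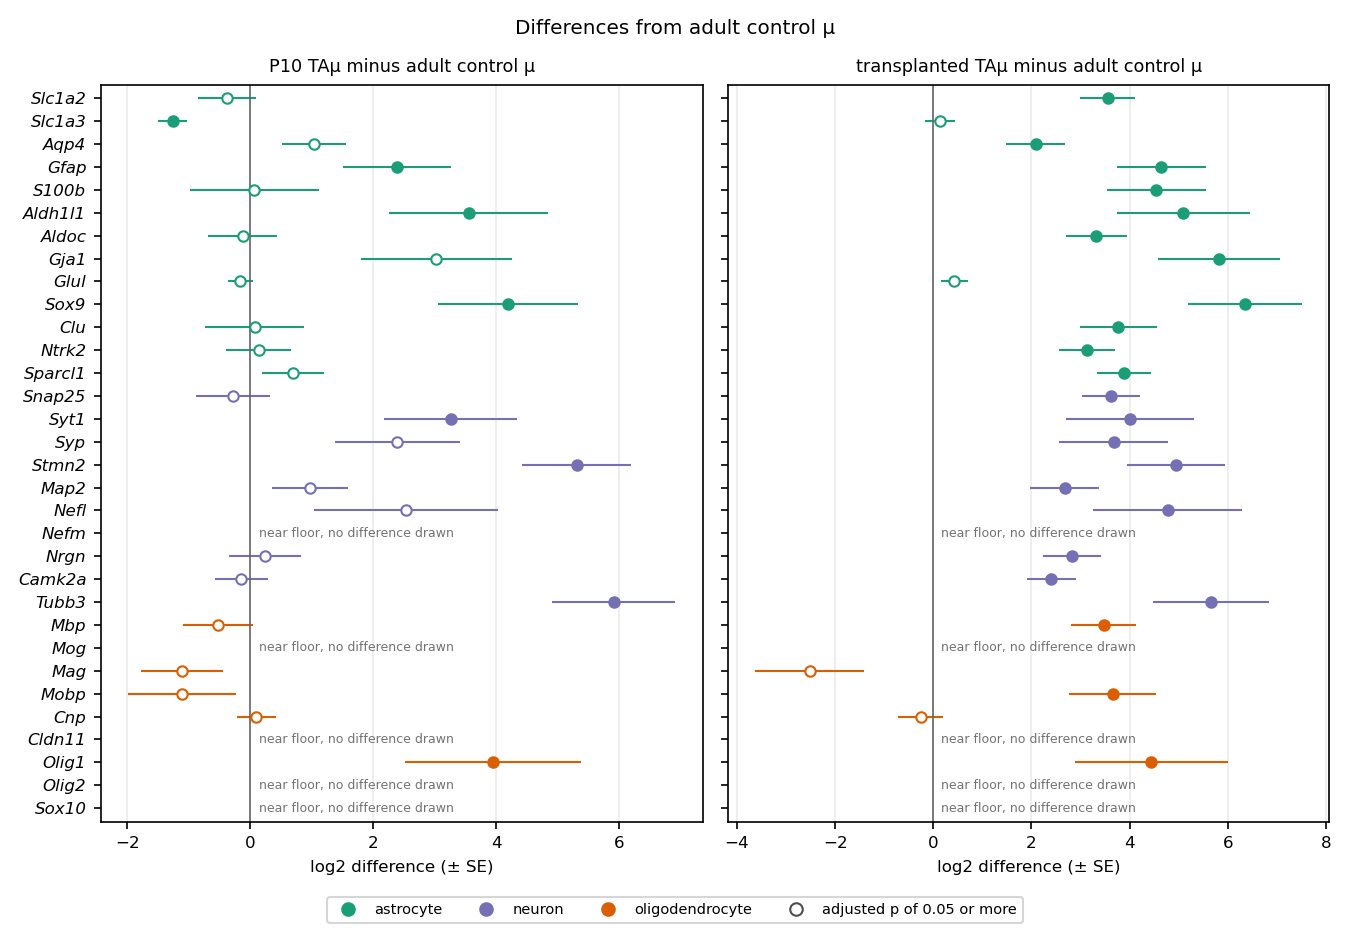
Log2 difference (horizontal axis, bars ± SE) of each member for P10 TAµ minus adult control µ and for transplanted TAµ minus adult control µ, with filled points for limma adjusted p under 0.05 and no point where adult control µ lay near the floor. Slc1a3 is the filled point left of 0 in P10 TAµ, and 0 filled points lie left of 0 in transplanted TAµ.

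The comparisons across fractions used the same libraries again and are given for completeness. Transplanted TAµ against adult control µ had the most calls: 26 of the 32 members were higher, against 16.7% of all genes, and 0 lower, against 13.4% of all genes, in the authors' deposited table. At an unadjusted limma p under 0.05 26 members had a positive and 1, Mag, a negative difference. All 10 neuron genes, 11 of 13 astrocyte genes and 5 of 9 oligodendrocyte genes came out higher in the authors' deposited table. Sox9 was higher in transplanted TAµ by 6.35 ± 1.16, Gja1 by 5.81 ± 1.24, Tubb3 by 5.65 ± 1.18, Aldh1l1 by 5.10 ± 1.35, Stmn2 by 4.94 ± 0.99 and Gfap by 4.65 ± 0.90 in the authors' deposited table. The members not called were Slc1a3 at 0.13 ± 0.31, Glul at 0.43 ± 0.28, Cnp at -0.25 ± 0.46 and Mag at -2.52 ± 1.11 in the authors' deposited table, with Mog and Sox10 near the floor in adult control µ.

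Transplanted µ against P10 TAµ called 12 of the 32 members higher, against 7.63% of all genes, and 3 lower, against 12.6% of all genes, in the authors' deposited table. Higher were 8 astrocyte genes, Snap25 and Camk2a, and Mbp and Mobp; Slc1a3 differed by 1.70 ± 0.23 (limma adjusted p = 5.84e-05) and Glul by 0.78 ± 0.20 (0.0112) in the authors' deposited table. Lower in transplanted µ were Tubb3 at -3.24 ± 0.88, Cldn11 at -3.15 ± 0.85 and Stmn2 at -1.76 ± 0.55 (limma adjusted p = 0.0142, 0.0137 and 0.0320) in the authors' deposited table. The call of Stmn2 was lost after centring, which moved the share of higher calls among all called genes to 62.0%, against 37.6% without centring. Mog at -3.24 ± 1.20, Sox10 at -2.32 ± 0.96 and Olig1 at -2.37 ± 1.26 were not called in the authors' deposited table.

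Other genes of the same cell types were read from wider lists. Of 23 further astrocyte genes measured, 20 were higher in transplanted TAµ than in P10 TAµ (87.0%, against 10.5% of all genes) and 15 in transplanted µ than in adult control µ (65.2%, against 11.3%), in the authors' deposited table. In P10 TAµ compared with adult control µ 5 were higher, 21.7% of them and near the 23.2% of all genes, and 1 was lower, in the authors' deposited table. Ppap2b, a lipid phosphatase of astrocytes, was higher in transplanted TAµ than in P10 TAµ by 2.48 ± 0.30 (limma adjusted p = 1.92e-05) in the authors' deposited table. Fgfr3, a growth factor receptor of astrocytes, was higher in transplanted µ than in adult control µ by 4.18 ± 0.92 (limma adjusted p = 0.00474) in the authors' deposited table. Their medians in the 2 transplant comparisons were 2.51 and 2.99, beside 2.79 and 2.45 for the 13 members.

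Of 37 further neuron genes measured, 14 were higher (37.8%, against 10.5% of all genes) and 2 lower in transplanted TAµ than in P10 TAµ, and 9 were higher (24.3%, against 11.3%) and 1 lower in transplanted µ than in adult control µ, in the authors' deposited table. In P10 TAµ compared with adult control µ 18 were higher (48.6%, against 23.2% of all genes) and 2 lower, in the authors' deposited table. Kif5a, an axonal transport motor, was higher in transplanted TAµ than in P10 TAµ by 5.16 ± 0.48 (limma adjusted p = 1.18e-06) and Vsnl1, a neuronal calcium sensor, by 3.42 ± 0.44 (3.13e-05) in the authors' deposited table. Elavl4, an RNA-binding protein of young neurons, was lower at -2.87 ± 0.78 (limma adjusted p = 0.0122), and Sst, the neuropeptide somatostatin, was lower with its transplanted TAµ level near the floor (limma adjusted p = 0.00101), in the authors' deposited table. Syt4 and Syn1, both of vesicles, were higher in transplanted µ than in adult control µ by 4.69 ± 0.85 and 4.6 ± 1.06, and Stx1a, of the fusion machinery, was lower at -4.20 ± 1.19, in the authors' deposited table. Kif5a was lower in P10 TAµ compared with adult control µ at -2.30 ± 0.50 and Sst higher by 4.62 ± 0.91 in the authors' deposited table.

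Of 18 further oligodendrocyte genes measured, 7 were higher (38.9%, against 10.5% of all genes) and 3 lower (16.7%, against 15.3%) in transplanted TAµ than in P10 TAµ, and 6 were higher (33.3%, against 11.3%) in transplanted µ than in adult control µ, in the authors' deposited table. In P10 TAµ compared with adult control µ 4 were higher, 22.2% of them and near the 23.2% of all genes, and 1 was lower, in the authors' deposited table. Plekhb1 was higher in transplanted TAµ than in P10 TAµ by 5.29 ± 0.62 (limma adjusted p = 1.17e-05) in the authors' deposited table. Evi2a was lower in transplanted TAµ than in P10 TAµ at -1.79 ± 0.27 (limma adjusted p = 0.000138) in the authors' deposited table. Precursor genes measured were 8, of which 7 were higher in P10 TAµ compared with adult control µ, with Vcan, a matrix proteoglycan, higher by 5.42 ± 1.18 and Ptprz1, a receptor phosphatase, by 2.53 ± 0.68, in the authors' deposited table. In transplanted TAµ against P10 TAµ 2 precursor genes were higher, Cspg5 by 1.86 ± 0.54 and Ptprz1 by 1.12 ± 0.35, and 3 lower, with Tnr and Cspg4 near the floor in transplanted TAµ, in the authors' deposited table.

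**Figure D5:**
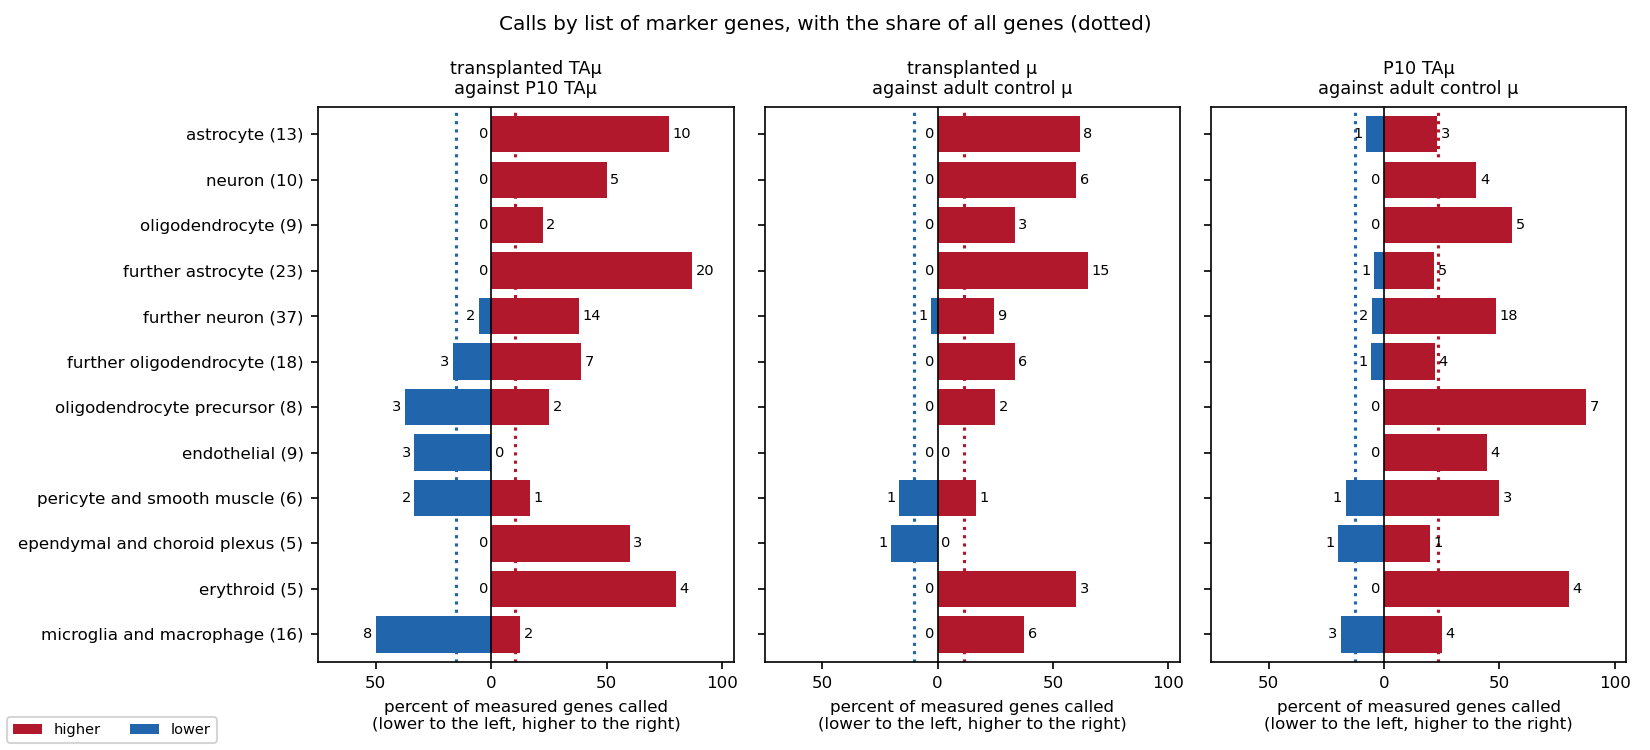
Percent of measured genes called (horizontal axis, lower to the left and higher to the right of 0, with counts at the bars) for the members by lineage and for wider lists of marker genes, in transplanted TAµ against P10 TAµ, transplanted µ against adult control µ, and P10 TAµ against adult control µ; dotted lines are the shares of all genes. The further astrocyte genes reach 20 of 23 higher in the first panel and 15 of 23 in the second, and the precursor genes 7 of 8 in the third.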

How the data were processed

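Sorted myeloid cells of mouse brain were sequenced in 17 libraries of 4 groups, assigned from the sample titles. Per the submitters' processing notes, STAR 2.3.0 aligned the reads to mm10, HTSeq 0.5.3 counted them per gene and limma made the comparisons; normalization, gene filter, annotation, strand setting and limma settings were not given in the sources used here. The deposited table holds comparisons of groups and no values per library, so the depth of a library is unknown here, and 0 columns of values per library were left unused. Per the file headers, the authors' limma fit gave its log2 average expression and the log2 fold changes between groups. The p-values and adjusted p-values were deposited from the same fit, per the file headers. So were the score columns, which per the file headers hold the moderated F and the calls of 1, 0 or -1.

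The members and all 14 lists of genes were chosen with earlier results of these data known. The deposited adjusted p of 0.05 was used as it stands. No header states the sign of a fold change, which was settled from 10 proliferation genes: all 10 are higher in P10 cells when the coefficient is positive for the first-named group. SEs were worked back from the fold changes and p-values at 18 degrees of freedom, a number that F and its p gave in 9369 genes (median 17.999). Group variances were solved for 13764 genes, and the difference of the transplant effects was tested on these with Benjamini-Hochberg adjustment. The median SE of a comparison was 0.47 to 0.72, and 0.87 for the difference of effects. Group levels were rebuilt so that their mean over the 17 libraries equals the average expression; read as a mean over groups instead, all levels of a gene shift together by -0.73 to 0.75. The floor is the median level of the genes tied at the commonest difference between groups of 3 libraries (68, 26 and 30 tied genes). The margin of 1 log2 unit was set after the values were seen. For the 8 P10 libraries no floor was found. The method was tested on simulated data fitted with limma 3.58.1. Named genes were all 32 members and up to 2 genes in each direction of each further list with the smallest adjusted p, some of which are not reported here. Csf1r, Sall1, Malat1, Neat1, Meg3 and mt-Co1 were named for the checks, and Ttr and Slc2a1 for their share of a sum. Alternatives were an adjusted p of 0.01, a minimum absolute log2 difference of 1, Bonferroni adjustment, a filter on average expression at the first quartile, 1 entry per symbol and centring on the median of all genes. Exon overlaps were read from GENCODE vM21 (mm10) and promoters from RefSeq (GRCm38.p6), with Python 3.11.15, pandas 2.3.3 and scipy 1.17.1.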

Additional observations from a re-analysis of the deposited data

Results flagged for a closer look

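In the test of the difference itself, 3 of the 32 members had a negative difference of effects past an adjusted p of 0.05. Their share, 9.38%, was near the 9.61% of all genes. This difference was transplanted TAµ minus P10 TAµ, less transplanted µ minus adult control µ. The moderated statistic had 18 degrees of freedom, with Benjamini-Hochberg adjustment over 13764 genes. For Stmn2 the difference of effects was -3.92 ± 1.14 (adjusted p = 0.0302): transplanted TAµ differed from P10 TAµ by -0.37 and transplanted µ from adult control µ by 3.55. For Olig2 it was -6.03 ± 1.88 and for Sox10 -5.58 ± 1.74 (adjusted p = 0.0421 each), and both lay near the floor in adult control µ, so these 2 values contain a difference from a group near the floor and their size is uncertain. All 3 were higher in P10 TAµ compared with adult control µ, with limma adjusted p-values of 0.000221, 0.00215 and 0.00175 in the authors' deposited table, and the age and the fraction of the controls cannot be told apart. None of the 3 passed after centring on the median of all genes, at an adjusted p of 0.01 or with Bonferroni adjustment.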

How the results depend on the processing

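No paired analysis was possible because the table holds no values per library, so the matching letters of the transplanted fractions could not enter as a replicate block, and leaving out single libraries was not run. A minimum absolute log2 difference of 1 ended 1 of the members' calls over the 7 comparisons (Glul in transplanted µ against P10 TAµ), and 1 entry per symbol changed none of the 224 values, since no symbol occurs more than once. At an adjusted p of 0.01, transplanted µ against adult control µ had 5 members higher, transplanted TAµ against transplanted µ 0 and P10 TAµ against adult control µ 7; transplanted µ against P10 TAµ had 0 lower and the difference of effects 0. With Bonferroni adjustment, transplanted TAµ against P10 TAµ had 9 members higher, transplanted µ against P10 TAµ 3 and transplanted TAµ against adult control µ 1. The other 3 comparisons of groups had 0 higher, and 0 were lower in P10 TAµ against adult control µ, in transplanted µ against P10 TAµ or in the difference of effects. The filter at the first quartile tested 26 of the 32 members, which left P10 TAµ against adult control µ with 6 higher and the difference of effects with 1 lower. Centring gave P10 TAµ against adult control µ 2 lower, and the difference of effects 2 higher and 0 lower. It also turned the sign of 13 small differences that were not called: Cnp (-0.0957) in transplanted µ against adult control µ; Tubb3 (0.0685) in transplanted TAµ against P10 TAµ; S100b (-0.34), Clu (-0.34), Ntrk2 (-0.28), Nrgn (-0.17) and Cnp (-0.31) in P10 TAµ against adult control µ; Aqp4 (0.0667), Cnp (0.29) and Olig2 (0.0278) in transplanted µ against P10 TAµ; and Glul (0.47), Mag (0.0389) and Cnp (0.0633) in the difference of effects. Depth per library is unknown, and the largest SEs of a member's level were 1.38, those of Olig1 and Nefl in adult control µ.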

Other observations

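Genes of cell types outside the 3 lineages were read as well. The 5 measured of 11 ependymal and choroid plexus genes summed on a linear scale to 707 in transplanted TAµ, 162 in transplanted µ, 98.4 in P10 TAµ and 69.5 in adult control µ. Ttr, the carrier of thyroid hormone, made up most of each sum, and the other 4 summed to 41.7 in transplanted TAµ, 1.53 in transplanted µ, 3.37 in P10 TAµ and 5.63 in adult control µ. In the authors' deposited table, 3 of the 5 were higher in transplanted TAµ than in P10 TAµ (60%, against 10.5% of all genes) and 2 higher in transplanted TAµ than in transplanted µ (40%, against 3.56%). Compared with adult control µ, 3 of the 5 were higher in transplanted TAµ and 1 lower (16.7% and 13.4% of all genes), while in transplanted µ 0 were higher and 1 lower by limma (11.3% and 10.5% of all genes), with 0 positive and 1 negative at an unadjusted p under 0.05, by the authors' deposited table. The 5 measured erythroid genes summed to 29.8 in transplanted TAµ, 3.02 in transplanted µ, 5.01 in P10 TAµ and 1.41 in adult control µ, and 3 of 5, by the authors' deposited table, were higher in transplanted TAµ than in transplanted µ. Of the endothelial genes the 9 measured of 17 summed to 41.5 in transplanted TAµ, 75.0 in transplanted µ, 76.5 in P10 TAµ and 47.3 in adult control µ. Slc2a1 made up most of each of these sums. The other 8 summed to 7.85 in transplanted TAµ, 18.3 in transplanted µ, 36.1 in P10 TAµ and 23.2 in adult control µ. Without Slc2a1, transplanted µ thus lay below adult control µ.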
